A study of Rattus norvegicus with 6 samples.

Results

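Transcripts of 10 genes that place or remove ubiquitin on histone H2A were compared between sham and ischemic rat myocardium. They encode core subunits of Polycomb repressive complex 1 (PRC1), namely Rnf2, Ring1, Bmi1, Pcgf1, Pcgf3, Pcgf5, Pcgf6 and Rybp, and the H2A deubiquitinases Bap1 and Usp16. The genes were found in the table by symbol, with no rule on their values, and each had 1 row in the table of FPKM values (fragments scaled by the length of the gene and the size of the library). All 10 of them, of 28293 genes in all, passed the filter of a mean FPKM of at least 0.5, which left 10942 genes for testing.

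PRC1 is a family of E3 ubiquitin ligases that attach a single ubiquitin to histone H2A, a mark tied to repressed genes. Each complex holds RNF2 (RING1B) or its paralog RING1 as the catalytic subunit and 1 of several PCGF proteins, and the PCGF protein sets which complex is formed. BMI1 (PCGF4) belongs to canonical PRC1 with CBX and PHC subunits, whereas PCGF1, PCGF3, PCGF5 and PCGF6 form variant complexes that carry RYBP or its paralog YAF2. BAP1, the catalytic subunit of the Polycomb repressive deubiquitinase (PR-DUB), and USP16 take the ubiquitin off again. RNA levels alone were measured here, and neither the proteins nor ubiquitinated H2A was.

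The samples were myocardial tissue of male, wild-type (WT) rats, with 3 sham and 3 I/R samples. In the I/R group the left anterior descending coronary artery was tied off under anesthesia after a left thoracotomy, for 30 min, and the heart was taken after 6 h of reperfusion (myocardial ischemia/reperfusion injury, MI/RI). The sham labels carry the same 2 times, and both groups share 1 surgical protocol in the labels, which describes no separate sham procedure. The labels number the samples without stating that each came from a separate animal, so the p-values measure the spread between these samples, which may be partly technical.

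Several features of the libraries moved with the groups and bear on every comparison of levels. Library size was read from the steps between the deposited values, relative to sham replicate 1. It was 1.18 and 1.14 in sham replicates 2 and 3, and 0.87, 0.94 and 0.88 in I/R. The 13 mitochondrially encoded mRNAs took 80.1 to 86.2% of the summed FPKM in sham and 61.8 to 71.5% in I/R, and across all tested genes the fold change in I/R over sham had a median of 0.29 on the log2 scale. Cardiomyocyte markers were present in all samples, with summed FPKM of 7777, 3001 and 2652 in the 3 sham samples and of 26949, 17640 and 17520 in I/R, and 5 of 6 were higher. Sham replicate 1 stood apart from the other sham samples in this list, so the fold changes of the 10 genes are also given without it. I/R replicate 1 likewise stood apart from the other I/R samples, and its mitochondrial share was 61.8% against 70.9 and 71.5%. Without I/R replicate 1 the log2 fold changes of Rnf2, Ring1, Pcgf5 and Bap1 were 0.76, 0.54, 0.71 and 0.56, none at an adjusted p under 0.05 in limma. The background for these marker counts is the share of all tested genes at an adjusted p under 0.05 in limma, 25.5% higher and 7.36% lower. Neutrophil and monocyte markers summed to 18.8 to 29.2 FPKM in sham and 55.1 to 121 FPKM in I/R, with 4 of 5 tested higher. Fibroblast markers had sums of 420 to 581 and 605 to 669 FPKM, with 2 of 7 higher, a count close to that background. Macrophage markers summed to 34.0 to 40.7 and 49.6 to 59.9 FPKM, with 1 of 6 higher and 1 lower. Endothelial markers summed to 156 to 200 and 165 to 191 FPKM, with 0 of 7 called by limma. At an unadjusted p under 0.05 there were 2, Kdr higher and Tek lower. Lymphocyte markers summed to 5.57 to 7.77 and 2.47 to 6.54 FPKM, with 1 of 2 tested lower. Smooth muscle and pericyte markers summed to 85.2 to 277 and 141 to 335 FPKM, with 1 of 6 higher and 1 lower. Of the red cell markers, only Hba-a2 was found, at 1061 to 1154 FPKM in sham and 583 to 1672 FPKM in I/R, and it was not called. The part of cell composition in the results below was not tested, and in bulk tissue fewer cells of a type and less RNA per cell cannot be told apart.

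Among the 10 genes, Rnf2, Pcgf5 and Bap1 rose in I/R, and none fell at an adjusted p under 0.05 in limma. The log2 fold changes ran from -1.11 for Pcgf6 to 1.10 for Pcgf5, with a median of 0.49. This made 3 of 10 higher against 25.5% of all genes tested, and 0 of 10 lower against 7.36%, and at an unadjusted p under 0.05 the counts were 5 higher, against 33.7% of all genes, and 1 lower, against 11.0%. The I/R values lay above all sham values for 6 of the 10 genes, against 37.2% of all genes, and below them for 1, against 13.0%. The count called higher was thus close to its background, and no set test was made. Relative to the median of all genes, 6 of the 10 lay above it and 4 below, with Bmi1 and Pcgf6 the farthest below.

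The promoters of these genes were read from RefSeq (rat build GRCr8, not necessarily the build of the table), for which 9 of the 10 had an entry, all but Rybp. The 250 bases upstream of the annotated start are shown for the paralogous ligase genes Rnf2 and Ring1, and for Bmi1, Pcgf5 and Pcgf6, the PCGF genes with the lowest and highest fold changes. Each is written 5′ to 3′ on the strand of the gene, and capitals mark matches, on either strand, to the TATA box TATAAA, the CCAAT box, the GC box GGGCGG, the ETS-type core CGGAAG, the cAMP response element core TGACGT or the E-box CACGTG.
Rnf2, chr13:66132912-66133161, minus strand: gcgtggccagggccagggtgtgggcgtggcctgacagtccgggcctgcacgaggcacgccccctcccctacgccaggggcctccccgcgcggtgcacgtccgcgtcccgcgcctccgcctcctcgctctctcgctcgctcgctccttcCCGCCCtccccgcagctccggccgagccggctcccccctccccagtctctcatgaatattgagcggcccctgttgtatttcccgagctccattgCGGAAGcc
Ring1, chr20:4831763-4832012, plus strand: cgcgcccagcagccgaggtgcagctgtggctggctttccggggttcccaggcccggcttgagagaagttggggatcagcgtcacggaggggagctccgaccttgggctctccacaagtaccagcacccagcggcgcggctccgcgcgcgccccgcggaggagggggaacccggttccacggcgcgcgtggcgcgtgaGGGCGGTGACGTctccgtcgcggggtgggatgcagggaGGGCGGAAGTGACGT
Bmi1, chr17:86243994-86244243, plus strand: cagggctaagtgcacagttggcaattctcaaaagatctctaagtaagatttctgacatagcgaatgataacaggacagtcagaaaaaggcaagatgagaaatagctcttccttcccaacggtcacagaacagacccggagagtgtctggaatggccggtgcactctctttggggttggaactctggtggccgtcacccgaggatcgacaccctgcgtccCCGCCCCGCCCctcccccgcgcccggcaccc
Pcgf5, chr1:243476201-243476450, plus strand: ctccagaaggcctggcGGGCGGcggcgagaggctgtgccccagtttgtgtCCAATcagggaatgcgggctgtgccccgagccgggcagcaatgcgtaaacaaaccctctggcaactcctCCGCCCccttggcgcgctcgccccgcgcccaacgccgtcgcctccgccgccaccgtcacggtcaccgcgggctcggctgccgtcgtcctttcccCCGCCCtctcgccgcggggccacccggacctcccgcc
Pcgf6, chr1:255886267-255886516, minus strand: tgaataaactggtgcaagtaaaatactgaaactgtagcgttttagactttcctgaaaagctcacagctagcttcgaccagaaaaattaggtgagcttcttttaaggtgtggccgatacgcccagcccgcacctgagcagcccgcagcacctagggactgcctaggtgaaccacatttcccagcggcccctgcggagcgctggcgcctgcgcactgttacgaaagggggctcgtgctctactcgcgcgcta
GGGCGG, the core of the GC box bound by Sp1-type factors, was found in 6 of the 9 promoters (Rnf2, Ring1, Bmi1, Pcgf1, Pcgf5 and Bap1), against 30.5% of 33469 rat promoters. CGGAAG, an ETS-type core, was found in 4 (Rnf2, Ring1, Bap1 and Usp16), against 13.9% of all, and 1 of the matches in Ring1 overlaps a GC box match. The CCAAT box was found in Pcgf1 and Pcgf5 (34.0% of all), TGACGT in Ring1 alone (6.95%), and neither TATAAA (12.9%) nor the palindrome CACGTG (5.59%) in any of the 9. The Pcgf6 and Pcgf3 windows held none of these motifs. The 9 windows were 50.0 to 73.6% G and C, against a median of 51.2% over all promoters, and held 9 to 32 CpG dinucleotides, against a median of 5. From low to high, the G and C content was 50.0% in Usp16, 54.8% in Pcgf6, 56.0% in Bmi1, 62.0% in Pcgf1, 64.4% in Bap1, 67.6% in Pcgf3, 72.4% in Ring1, 72.8% in Rnf2 and 73.6% in Pcgf5. A match is a description of letters and shows neither binding nor a cause.

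**Figure D1:**
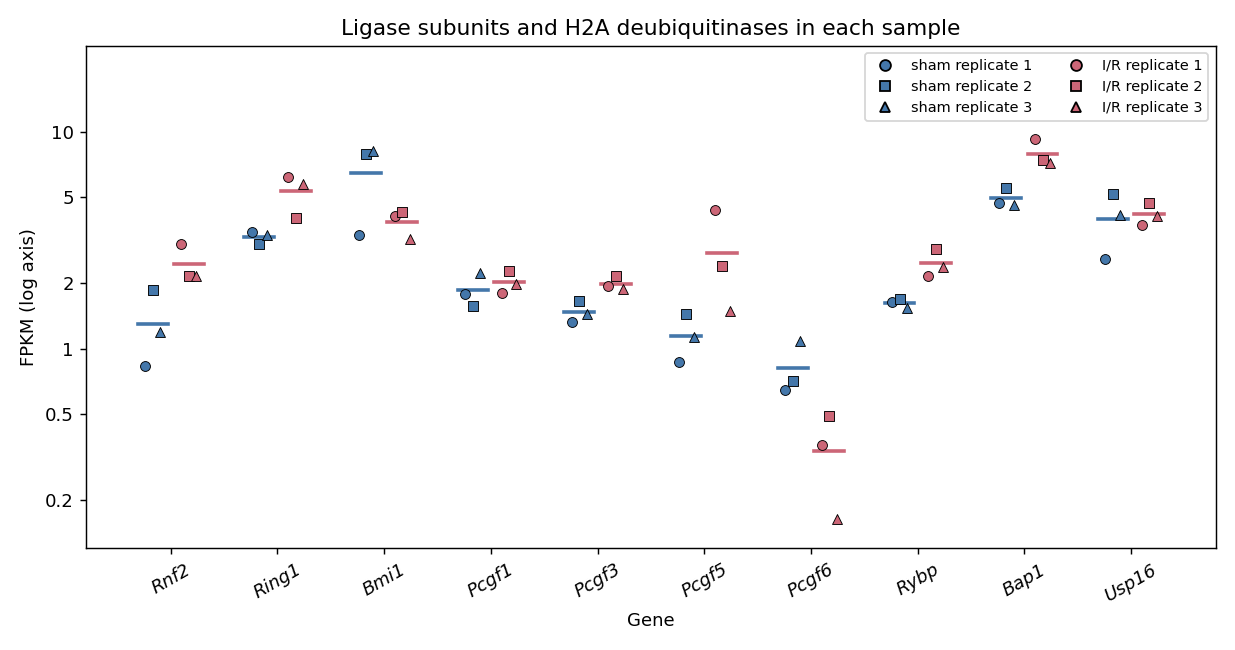
FPKM of each of the 10 genes in the 3 sham and 3 I/R samples, on a log axis, with 1 point per sample and a bar at the mean of each group. The I/R points lie above all sham points for Rnf2, Ring1, Pcgf3, Pcgf5, Rybp and Bap1 and below them for Pcgf6, while Bmi1, Pcgf1 and Usp16 overlap.

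Rnf2 (ENSRNOG00000002454), the principal catalytic subunit of PRC1 in most tissues, was at 0.831, 1.88 and 1.19 FPKM in the sham samples (replicates in order, here and for each gene) and at 3.04, 2.16 and 2.16 FPKM in I/R. The groups did not overlap, and sham replicate 1 was the lowest sample. The means were 1.30 ± 0.530 and 2.45 ± 0.505 FPKM (SD, n = 3), a log2 fold change of 0.92 (SE 0.31, 95% confidence interval 0.23 to 1.60, limma adjusted p = 0.0443). Without sham replicate 1 the log2 fold change was 0.66 and the call was lost (limma adjusted p = 0.124). On leaving out each sample in turn it was 0.66 to 1.20, past the threshold only without sham replicate 2. An exact permutation test, two-sided, gave p = 0.1, the smallest that 3 samples against 3 allow. The smallest whole numbers of fragments that fit the steps between the deposited values, of which the true numbers may be multiples, were 86, 229 and 140 in sham and 274, 209 and 197 in I/R. Such numbers are not scaled for library size, here and for each gene, and those of Rnf2 overlapped between the groups.

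Ring1 (ENSRNOG00000000467), the paralog that can take the place of RNF2, stood at 3.45, 3.06 and 3.35 FPKM in sham and 6.18, 4.03 and 5.78 FPKM in I/R. All 3 I/R samples were above all 3 sham samples, with a wider spread in I/R. The log2 fold change was 0.66 (SE 0.23, interval 0.14 to 1.18) and just missed the threshold (limma adjusted p = 0.0532), while with the replicate number as a block it passed (adjusted p = 0.0457), as it did without I/R replicate 2 (0.85, adjusted p = 0.0401). Without sham replicate 1 the log2 fold change was 0.70, not called. Ring1 was the more abundant ligase transcript in every sample. Rnf2 made up 19.4, 38.0 and 26.3% of the FPKM of both in sham and 32.9, 34.9 and 27.2% in I/R, and these shares overlapped. A factor common to all genes of a sample leaves such shares unchanged, while quantile normalization does not. Their means of 27.9 ± 9.42% and 31.7 ± 3.99% (SD, n = 3) differed by 3.77 points (exact permutation test, two-sided, p = 0.6), and by -0.475 points without sham replicate 1.

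Of the PCGF genes Pcgf5 rose, whereas Bmi1 and Pcgf6 had negative log2 fold changes that did not pass the threshold and Pcgf1 and Pcgf3 were not called. Pcgf5 (ENSRNOG00000018532), a subunit of a variant PRC1, was at 0.867, 1.44 and 1.13 FPKM in sham and 4.37, 2.41 and 1.50 FPKM in I/R. The groups did not overlap, but I/R replicate 3 lay just above sham replicate 2, and I/R replicate 1 was far above the rest. The log2 fold change was 1.10 (SE 0.37, interval 0.28 to 1.92, limma adjusted p = 0.0444), and it was 0.71 without I/R replicate 1 and 0.93 without sham replicate 1, past the threshold in neither case. Leaving out each sample in turn, it was 0.71 to 1.45 and was called only without I/R replicate 3. The smallest whole numbers of fragments that fit its values were 63 to 124 in sham and 96 to 277 in I/R, ranges that overlap.

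Bmi1 (ENSRNOG00000016585), a PCGF subunit of canonical PRC1 and a repressor of the Cdkn2a locus, was at 3.34, 7.92 and 8.20 FPKM in sham and 4.10, 4.26 and 3.19 FPKM in I/R. Sham replicates 2 and 3 stood well above all I/R samples, whereas sham replicate 1 lay within the I/R range. With all samples the log2 fold change was -0.64 (SE 0.34, interval -1.40 to 0.12, limma adjusted p = 0.172). Without sham replicate 1 it was -1.06 and passed the threshold (limma adjusted p = 0.0129). Without sham replicate 2 or 3 it was -0.45 or -0.42 (limma adjusted p = 0.407 and 0.447). On leaving out each sample in turn it was -1.06 to -0.42, called only without sham replicate 1. Thus, for the values as deposited, leaving out 1 library changed whether Bmi1 was called. With all samples, it was also called when they were rescaled without the mitochondrially encoded mRNAs (-1.41, limma adjusted p = 0.0138).

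Pcgf6 (ENSRNOG00000020250), the PCGF subunit of the variant complex that also holds E2F6 and L3MBTL2, was the least abundant of the 10 in both groups. It was at 0.646, 0.707 and 1.09 FPKM in sham and 0.357, 0.488 and 0.164 FPKM in I/R, with no overlap. Its I/R mean of 0.337 FPKM was under the filter of 0.5 FPKM, so it was tested only through its higher sham values. The log2 fold change of -1.11 (SE 0.42, interval -2.04 to -0.18) did not pass the threshold (limma adjusted p = 0.0662, unadjusted p = 0.0242), nor did the value of -1.24 without sham replicate 1 (adjusted p = 0.0788). The smallest whole number that fits the value of I/R replicate 3 is 13 fragments, and 28 to 111 fit the other samples. If 13 is the true number, its exact Poisson 95% interval is 6.92 to 22.2 fragments or 0.0875 to 0.281 FPKM, for counting error only, and a true number that is a multiple of it would give a narrower one.

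Pcgf3 (ENSRNOG00000000062), a close paralog of Pcgf5 that also forms a variant complex, was at 1.33, 1.66 and 1.45 FPKM in sham and 1.95, 2.15 and 1.88 FPKM in I/R. The groups were separate and tight, yet the log2 fold change of 0.41 (SE 0.22, interval -0.08 to 0.90) was not called (limma adjusted p = 0.179), and it was 0.34 without sham replicate 1. Pcgf1 (ENSRNOG00000051433), the PCGF subunit of the complex with KDM2B and BCOR, was at 1.78, 1.57 and 2.23 FPKM in sham and 1.81, 2.29 and 1.98 FPKM in I/R. Its groups overlapped, with a log2 fold change of 0.12 (SE 0.23, interval -0.40 to 0.64, limma adjusted p = 0.714), which leaves changes of either sign within the interval, and 0.10 without sham replicate 1.

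Within the summed FPKM of the 5 PCGF genes, Bmi1 and Pcgf6 took smaller shares and Pcgf5 a larger share in every I/R sample than in any sham sample. Bmi1 took 41.9, 59.5 and 58.2% of the sum in sham and 32.6, 36.7 and 36.6% in I/R, without overlap, even for sham replicate 1. Its mean share was 53.2 ± 9.81% in sham and 35.3 ± 2.34% in I/R (SD, n = 3), a difference of -17.9 points, or -23.5 points without sham replicate 1. Pcgf5 took 10.9, 10.9 and 7.99% in sham and 34.7, 20.8 and 17.2% in I/R, with means of 9.91 ± 1.66% and 24.2 ± 9.24% and a difference of 14.3 points. Pcgf6 took 8.10, 5.31 and 7.72% in sham and 2.84, 4.21 and 1.88% in I/R, with means of 7.05 ± 1.51% and 2.98 ± 1.17%. For each of these 3 genes the groups did not overlap and the exact permutation test, two-sided, gave p = 0.1, the smallest possible with 3 against 3, and 0.167 after adjustment over the 5 genes. With 3 samples a group this exact test cannot give a p under 0.05.

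The shares of Pcgf3 (13.2 ± 3.29% and 18.5 ± 3.03%) and Pcgf1 (16.7 ± 5.33% and 18.9 ± 4.24%) overlapped between the groups. Their differences of 5.38 and 2.26 points gave exact permutation p = 0.2 and 0.7. A share of a sum falls when another member of the family takes more of it, so the 5 differences are not independent of each other. Pcgf2, the other PCGF subunit of canonical PRC1 and named here after its values were seen, was outside the sum, at 1.86 ± 0.506 FPKM in sham and 1.73 ± 0.889 FPKM in I/R (SD, n = 3), with overlap and a log2 fold change of -0.20 (limma adjusted p = 0.715).

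**Figure D2:**
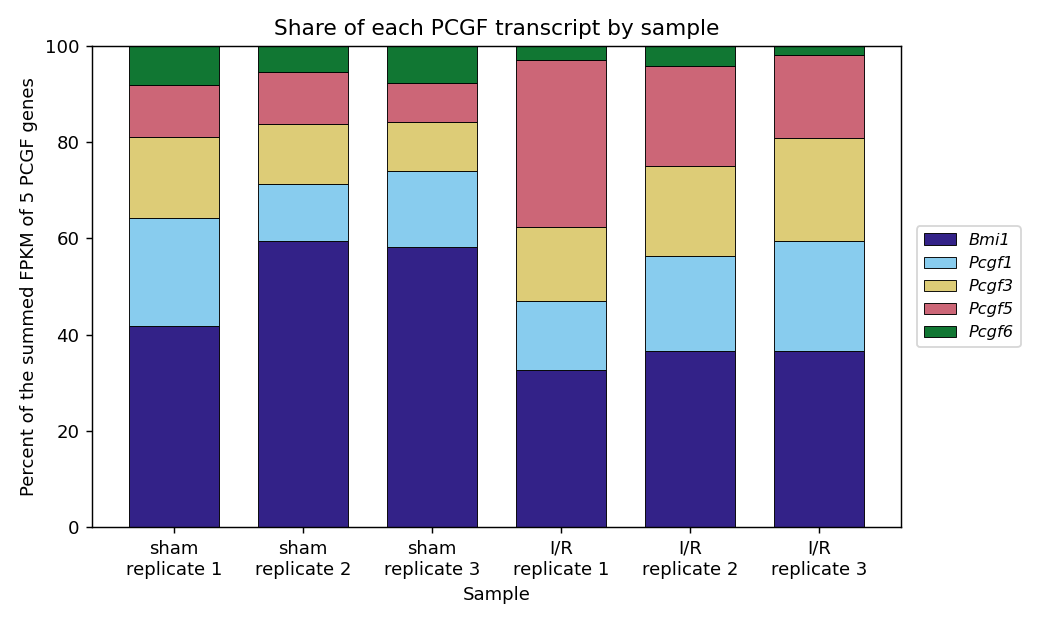
Share of the summed FPKM of Bmi1, Pcgf1, Pcgf3, Pcgf5 and Pcgf6, in percent, as 1 stacked bar for each of the 3 sham and 3 I/R samples. Bmi1 takes 41.9 to 59.5% in sham and 32.6 to 36.7% in I/R, and Pcgf5 takes 7.99 to 10.9% and 17.2 to 34.7%.

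Rybp (ENSRNOG00000005353), which stimulates the ligase activity of variant PRC1, was at 1.65, 1.69 and 1.53 FPKM in sham and 2.16, 2.89 and 2.38 FPKM in I/R. The sham samples were the tightest of the set, and the groups did not overlap. The log2 fold change was 0.57 (SE 0.22, interval 0.08 to 1.06, limma adjusted p = 0.0722), and 0.58 without sham replicate 1 (adjusted p = 0.111). Its paralog Yaf2, named here after its values were seen, was at 5.74 ± 0.806 FPKM in sham and 8.42 ± 2.35 FPKM in I/R (SD, n = 3), with overlap and a log2 fold change of 0.52 (limma adjusted p = 0.145).

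Bap1 (ENSRNOG00000019097), the PR-DUB catalytic subunit, was the most abundant of the 10 in I/R. It was at 4.70, 5.52 and 4.60 FPKM in sham and 9.27, 7.40 and 7.21 FPKM in I/R, with every I/R sample above every sham sample. The means were 4.94 ± 0.504 and 7.96 ± 1.14 FPKM (SD, n = 3), with a log2 fold change of 0.67 (SE 0.22, interval 0.19 to 1.16, limma adjusted p = 0.0391). The call was lost on leaving out any 1 sample, with log2 fold changes of 0.56 to 0.75, and without sham replicate 1 the value was 0.64. The smallest whole numbers of fragments that fit its values were 744 to 1032 in sham and 1006 to 1281 in I/R, ranges that overlap. The true numbers may be multiples that differ by gene, so they are not compared between genes.

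Usp16 (ENSRNOG00000001598), a deubiquitinase that acts on H2A around mitosis and at Polycomb targets, was at 2.59, 5.18 and 4.12 FPKM in sham and 3.74, 4.69 and 4.12 FPKM in I/R. The I/R samples all lay within the sham range. The log2 fold change was 0.12 (SE 0.27, interval -0.49 to 0.74, limma adjusted p = 0.755), and -0.15 without sham replicate 1. The log2 ratio of both deubiquitinases to both ligases, (Bap1 + Usp16)/(Rnf2 + Ring1), was 0.767, 1.12 and 0.943 in sham and 0.497, 0.965 and 0.512 in I/R. The groups overlapped, with means of 0.943 ± 0.175 and 0.658 ± 0.266 (SD, n = 3) and a difference of -0.28 (exact permutation test, two-sided, p = 0.3). Taken instead as the mean log2 FPKM of the deubiquitinases minus that of the ligases, which gives each gene equal weight, the difference was -0.42 (exact permutation p = 0.1, the smallest possible).

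The order of the levels, which FPKM allows since it is per length, changed at the top. In sham the order was Bmi1, Bap1, Usp16, Ring1, Pcgf1, Rybp, Pcgf3, Rnf2, Pcgf5 and Pcgf6, and the only gap between the ranges of neighbours lay between Ring1 and Pcgf1. In I/R it was Bap1, Ring1, Usp16, Bmi1, Pcgf5, Rybp, Rnf2, Pcgf1, Pcgf3 and Pcgf6, with a gap below Bap1 and a gap above Pcgf6. These orders are of group means, and Bmi1 was highest only in sham replicates 2 and 3. In sham replicate 1, Bap1 (4.70 FPKM) and Ring1 (3.45 FPKM) lay above Bmi1 (3.34 FPKM). The means over all samples ran from 0.575 to 6.45 FPKM, against a median of 2.99 FPKM over all genes tested, and 6 of the 10 lay below that median.

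How the samples are scaled set the direction of several of the 10 fold changes. Under 5 scalings (as deposited, as TPM, centred on the median, quantile normalized, and rescaled without the mitochondrially encoded mRNAs) the median of all genes moved between -0.48 and 0.47 on the log2 scale. The sign changed for Ring1, Pcgf1, Pcgf3, Rybp, Bap1 and Usp16 when the mitochondrial mRNAs were taken out of the total, with values of -0.11, -0.63, -0.33, -0.18, -0.10 and -0.64, none of them called. In that scaling Bmi1 fell by 1.41 (limma adjusted p = 0.0138) and Pcgf6 fell by 1.77 (adjusted p = 0.0127). None of the 10 was called higher there, with Rnf2 at 0.17 and Pcgf5 at 0.36. Of all 11209 genes tested there, 3010 were called lower and 791 higher. Rnf2, Pcgf5 and Bap1 were called as TPM, together with Ring1 and Rybp, where 3477 of 11335 genes were called higher. None of the 3 was called when centred on the median, and Bap1 was not when quantile normalized (limma adjusted p = 0.298). Distances from the median of all genes moved less, which follows in part from the scalings themselves: centring leaves them as they were, and TPM and the removal of the mitochondrial mRNAs multiply all genes of a sample by the same factor. Rnf2 lay 0.63 to 0.81 above it, Pcgf5 0.81 to 0.98, Ring1 0.35 to 0.38, Bap1 0.25 to 0.40, Rybp 0.28 to 0.44 and Pcgf3 0.12 to 0.31 above it, over the 5 scalings. Bmi1 lay between -1.06 and -0.92 of it, Pcgf6 between -1.45 and -1.18, Usp16 between -0.20 and -0.16 and Pcgf1 between -0.17 and 0.00.

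**Figure D3:**
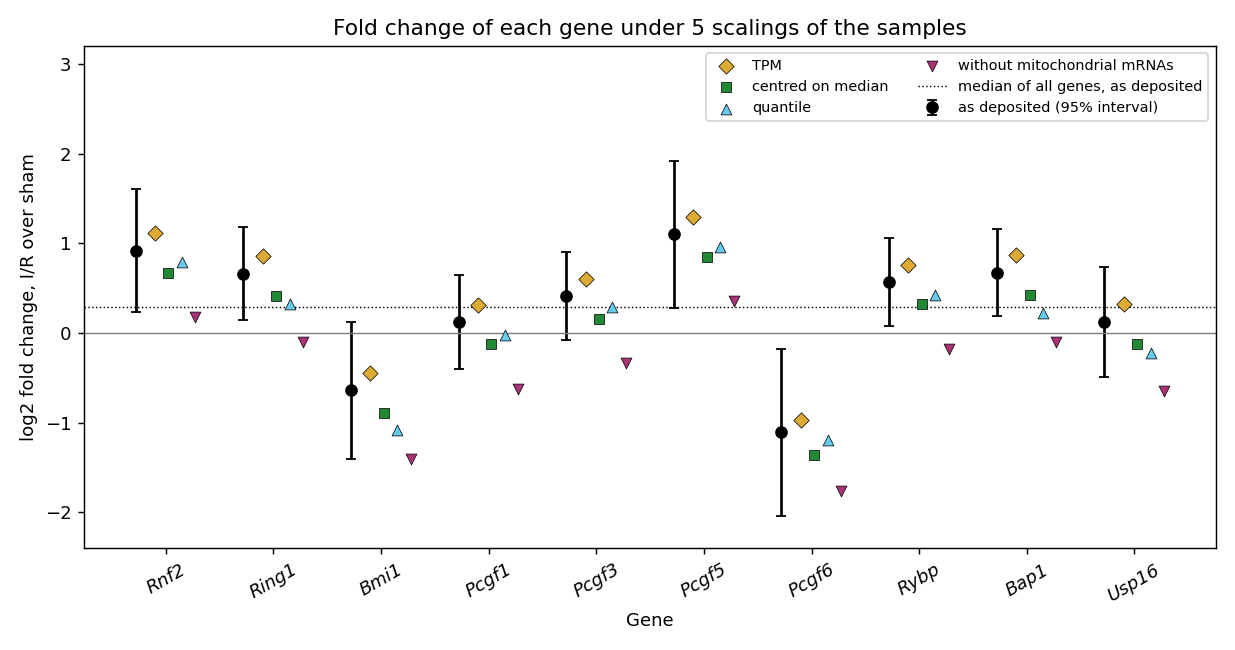
Log2 fold change (I/R over sham) of each of the 10 genes under the 5 scalings, with 1 symbol per scaling, the limma 95% interval as a bar for the values as deposited, and the median of all genes as deposited (0.29) as a dotted line. Rnf2 and Pcgf5 lie above 0 and Bmi1 and Pcgf6 below 0 in all 5, and each of the other 6 genes changes sign in at least 1.

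The partners of these proteins gave calls in both directions. Of 64 further genes of PRC1, PR-DUB, PRC2 and other H2A ubiquitin enzymes, 59 were in the table and 47 were tested, of which 5 rose and 5 fell, with a median log2 fold change of -0.08 against 0.29 for all genes. The background for these counts and those of the lists below is again 25.5% higher and 7.36% lower. In variant PRC1, 3 of 16 rose and 1 fell. E2f6, a repressive E2F that works in the PCGF6 complex, was at 6.95, 6.38 and 4.18 FPKM in sham and 32.3, 17.5 and 15.3 FPKM in I/R, a log2 fold change of 1.83 (SE 0.32, limma adjusted p = 0.00457). It was called in all 17 alternative fits. L3mbtl2, a chromatin-binding subunit of the same complex, was at 4.43, 6.00 and 3.77 FPKM in sham and 1.39, 2.16 and 2.59 FPKM in I/R, a log2 fold change of -1.19 (SE 0.28, limma adjusted p = 0.0125). Its call was lost without sham replicate 2, with -1.37 to -0.95 over the samples left out. Neither gene overlapped between the groups. Csnk2b, the regulatory subunit of casein kinase 2 found with PCGF5-type complexes, rose by 1.21 (limma adjusted p = 0.0122), though not past the threshold under quantile normalization (0.58) or without the mitochondrial mRNAs (0.43), nor without sham replicate 3 (range without 1 sample 0.98 to 1.48). Skp1, the third riser, named after its values were seen, had a log2 fold change of 0.96. It was -0.03 under quantile normalization and 0.18 without the mitochondrial mRNAs, called in neither, but was called as TPM and centred on the median.

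In canonical PRC1, 1 of 7 tested partners fell and none rose. This was Cbx7, a chromodomain subunit that reads trimethylated H3, at 2.90, 4.64 and 4.35 FPKM in sham and 2.88, 1.98 and 1.97 FPKM in I/R, with a log2 fold change of -0.76 (limma adjusted p = 0.0487). The call rested on a narrow margin and was lost in 9 of 16 alternative fits, among them those without sham replicate 2 or 3 or I/R replicate 2 or 3 (range -0.97 to -0.64) and the one with the replicate number as a block (limma adjusted p = 0.0605). At an unadjusted p under 0.05, 2 of the 7 passed, Cbx7 lower and Phc2 higher. Phc2 had a log2 fold change of 0.52 (limma unadjusted p = 0.0353). At that threshold 33.7% of all genes were higher and 11.0% lower. Among 6 tested partners of PR-DUB, Ogt, the O-GlcNAc transferase bound to BAP1 complexes, fell by 1.79 (SE 0.35, limma adjusted p = 0.00621), from 5.13, 13.7 and 9.93 FPKM in sham to 1.96, 3.08 and 2.60 FPKM in I/R. It was called in all 17 alternatives. Foxk1, a forkhead factor that recruits BAP1, was the 1 riser there, from 0.302 ± 0.0733 to 0.786 ± 0.125 FPKM (SD, n = 3), a log2 fold change of 1.15 (limma adjusted p = 0.0351) at a low level. Its sham mean was under the filter of 0.5 FPKM, so it was tested only through its higher I/R values. On leaving out each sample in turn it passed the filter in 4 of 6 fits and was called in 1 of them (range 0.99 to 1.27), the call being lost without sham replicate 2 or 3 or I/R replicate 2. Foxk1 was not called centred on the median (0.90, limma adjusted p = 0.0764) or without the mitochondrial mRNAs (0.51, adjusted p = 0.382). It was called as TPM and by quantile normalization.

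Of the 7 other H2A deubiquitinase genes tested, Mysm1 alone fell and none rose. Mysm1 went from 1.27 ± 0.373 to 0.512 ± 0.136 FPKM (SD, n = 3), a log2 fold change of -1.15 (limma adjusted p = 0.0237). Without sham replicate 2 or 3 or I/R replicate 1 or 3 it was not called (range -1.32 to -0.94). At an unadjusted p under 0.05, 2 of the 7 passed, Mysm1 lower and Usp22 higher. Usp22 had a log2 fold change of 0.57 (limma unadjusted p = 0.0396). At that threshold 33.7% of all genes were higher and 11.0% lower. Of the 3 other H2A ligase genes tested, Rnf168, which acts on H2A at DNA breaks, fell from 1.29 ± 0.0685 to 0.587 ± 0.110 FPKM, a log2 fold change of -1.03 (limma adjusted p = 0.0189), lost without sham replicate 3 or I/R replicate 3 (range -1.15 to -0.96). Of 8 PRC2 genes tested, Rbbp4, a histone chaperone shared with other complexes, rose from 3.09 ± 0.739 to 5.53 ± 0.949 FPKM, a log2 fold change of 0.83 (limma adjusted p = 0.0302). Its call was lost in 8 of 16 alternative fits, among them all that left out 1 sample except sham replicate 2 (range 0.64 to 0.98). The call was also lost under quantile normalization (0.48, limma adjusted p = 0.105) and without the mitochondrial mRNAs (0.07, adjusted p = 0.883). It was kept as TPM and centred on the median.

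**Figure D4:**
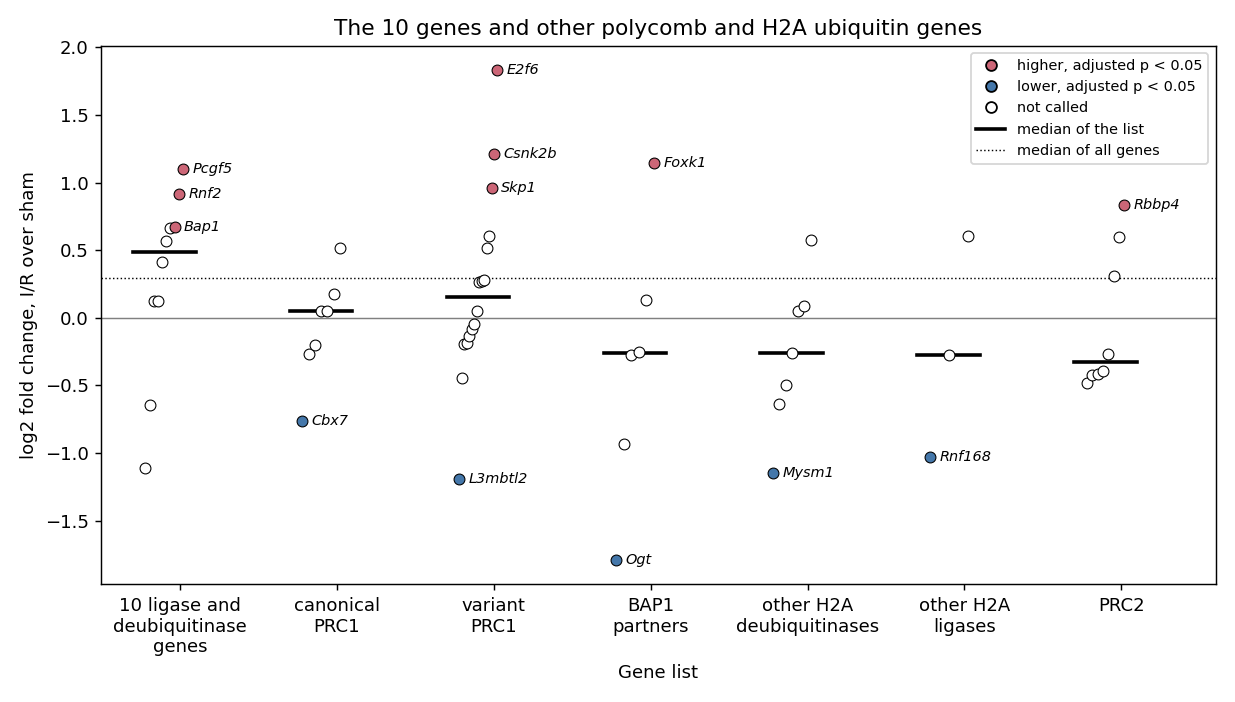
Log2 fold change (I/R over sham) of each tested gene in the set of 10 and in the 6 lists of partner genes, with 1 point per gene, the median of each list as a bar and the median of all genes tested (0.29) as a line. The set of 10 has a median of 0.49, and the lists have medians of -0.33 to 0.16.

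The genes with profiles most like those of Rnf2, Bmi1 and Bap1 over the 6 samples were found by the root-mean-square distance between log2 values, each centred on the mean of its gene. For Rnf2 they were Scarb2 (0.0671), Sestd1 (0.0892) and Wdr6 (0.0937), against 0.578 for the size of the Rnf2 profile itself. For Bmi1 they were Cenpl (0.0953), Dync2li1 (0.114) and Med17 (0.125), against 0.540. For Bap1 they included App (0.0425) and Zdhhc14 (0.0475), against 0.364. All of them share the libraries and the group difference of the gene they were matched to, and the distances are a description. Cenpl in I/R (mean 0.467 FPKM) and Zdhhc14 in sham (mean 0.481 FPKM) lay under the filter of 0.5 FPKM. Both genes were tested only through their higher values in the other group.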

How the data were processed

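Total RNA of the 6 myocardial samples was sequenced with a stranded kit. The authors deposited FPKM values per gene and sample in 1 table, and the submitters' processing notes name STAR and HTSeq, without versions. The genome build, the strand setting and the total in the FPKM denominator are not given in the sources used here, so genes with close paralogs or antisense partners are uncertain. Rows with the same symbol were summed. The absolute depth is unknown. The smallest whole numbers matching the deposited values within 0.02 were found for 9853 of 9854 rows with a mean FPKM of 0.5 to 20, and were used only to describe the fragments behind a value, with a counting interval for Pcgf6.

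Log2(FPKM + 0.1) of 10942 genes was fitted by group in R 4.3.3 with limma 3.58.1 (lmFit, eBayes with trend), with Benjamini-Hochberg adjustment over all of them and a threshold of 0.05. Fold changes are on this scale, which understates changes of low genes. Shares and ratios were compared with exact permutation tests (scipy 1.17.1). The fit and its adjustment were tested on simulated data. The 10 genes, the partner lists and the markers were chosen with earlier results of these data known. Named partners were the 2 largest changes in each direction among those called, per list, and the 3 nearest profiles for Rnf2, Bmi1 and Bap1, of which 1 is not reported here. Deviations from the group means of same-numbered sham and I/R samples, numbered in the labels, had correlations of 0.203, 0.117 and 0.118. Sham 3 with I/R 2 gave 0.120, so these values do not establish a pairing, and the labels state none. As an alternative, the model was also fitted with replicate number as a blocking term. The alternatives were other pseudocounts, filters, scalings and thresholds, no trend, the block, and leaving out each sample. Another took the highest row of a symbol instead of the sum.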

Additional observations from a re-analysis of the deposited data

How the results depend on the processing

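The count of the 10 genes called higher, 3 in the reported fit, was 1 with no filter on low values, 1 under a minimum mean of 5 FPKM (where 2 members were tested), 5 as TPM, 5 at an unadjusted p under 0.05, and 0 without the mitochondrial mRNAs, centred on the median, without the trend or at an adjusted p under 0.01. Over all genes, the first of these settings called higher 2198 of 19226, 1892 of 3784, 3477 of 11335 and 3684 of 10942, in the order given. For the settings with 0 the counts were 791 of 11209, and 2020, 2671 and 1185 of 10942. The count called lower, 0 in the reported fit, was 2 without the mitochondrial mRNAs and 1 centred on the median, without the trend or at an unadjusted p. Over all genes, 3010 of 11209 were lower without the mitochondrial mRNAs. Of 10942 genes, 1554 were lower centred, 808 without the trend and 1204 unadjusted. The 1 gene lower without the trend was Pcgf6 (limma adjusted p = 0.0361). Leaving out 1 sample each gave 0 to 1 higher and 0 to 1 lower. Of the partner genes, with 5 called each way, 1 without the mitochondrial mRNAs, 2 by quantile normalization, 9 unadjusted and 1 at 0.01 were higher. Lower were 1 at a mean FPKM of at least 5, 21 without the mitochondrial mRNAs, 11 centred, 10 by quantile normalization and 1 at 0.01. Leaving out 1 sample gave 2 to 5 higher and 2 to 5 lower. Of all genes, 2790 higher became 791 without the mitochondrial mRNAs, 1441 by quantile normalization, 1185 at 0.01 and 1526 to 2567 without 1 sample. The 805 lower became 166 at a mean of at least 5, 527 as TPM, 3010 without the mitochondrial mRNAs, 1554 centred, 1559 by quantile normalization, 211 at 0.01 and 305 to 880 without 1 sample. Of the calls 77.6% were higher, against 86.8% as TPM, 91.9% at a mean of at least 5, 56.5% centred, 48.0% by quantile normalization and 20.8% without the mitochondrial mRNAs.

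Log2 fold changes that reversed without the mitochondrial mRNAs were Ring1 -0.11, Pcgf1 -0.63, Pcgf3 -0.33, Rybp -0.18, Bap1 -0.10 and Usp16 -0.64. Pcgf1 was -0.13 centred and -0.020 by quantile normalization, and Usp16 was -0.13 and -0.22, and -0.15 without sham replicate 1. Leaving out 1 sample, Usp16 ran from -0.15 to 0.34, the share difference of Rnf2 from -0.475 (without sham replicate 1) to 8.84 points, Bmi1 from -23.5 to -14.7, Pcgf5 from 9.08 to 17.8, Pcgf6 from -4.94 to -3.52, Pcgf3 from 3.87 to 7.17 and Pcgf1 from -0.170 (without sham replicate 2) to 5.11, and the log2 ratio of deubiquitinases to ligases from -0.438 to -0.197. Rnf2 kept its call in 8 of 18 alternatives, Pcgf5 in 7 of 18 and Bap1 in 8 of 19. Among these, the unadjusted threshold could not lose a call. Taking the highest row of a symbol instead of the sum left the values of these genes unchanged, each having 1 row. The counts of alternative fits given for partner genes leave out the other p thresholds. Pcgf6 was under the filter without sham replicate 3. The cause of these differences was not tested.

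With the replicate number as a block, 4 of the 10 genes were called higher, Ring1 being added (limma adjusted p = 0.0457), with 3085 genes higher and 895 lower in all, and no other call among the 10 changed. Of the partners, Cbx7 lost its call under the block, which left 5 higher and 4 lower.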
